A study of Mus musculus with 3 samples.

Results

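Genes for secreted and surface proteins of gastric mucous cells were examined: the mucin Muc5ac, the trefoil factors Tff1 and Tff2, the gastrokines Gkn1 and Gkn2, the surface proteins Psca and Vsig1, and the prosaposin-like protein Psapl1. These 8 genes of 18194 on the array were chosen by name, and all 10 probe sets that name them alone were used. RNA came from mouse stomach, from parietal cells, which secrete acid, from zymogenic (chief) cells, which secrete digestive enzymes, and from pit cells, the mucous cells of the upper gastric unit. Per the series' design text, cells were cut out one by one with a laser, parietal cells being picked by the lectin DBA and autofluorescence and pit cells by E-cadherin without DBA, both from the same gastric units, with the parietal cells taken from the pit zone. Zymogenic cells were taken from unit bases on other slides, as cells with E-cadherin that bound neither GSII nor DBA, also lectins. RNA of 3000 to 5000 cells from 4 to 5 mice was pooled for each lineage and hybridised to 1 Affymetrix array, so there are 3 arrays and no replicate. Each lineage's RNA is called a pool below. The labels used here name no strain, genotype, age or treatment. Every difference below describes these 3 pools and has no replicate check, test or p-value. As cells were pooled, fewer cells of a type and less RNA per cell cannot be told apart.

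The stomach surface is covered by a gel of the mucin MUC5AC, which pit and surface cells store in apical granules and release. Trefoil factors are small proteins held compact by disulfide bonds that are secreted together with mucins and help the epithelium to close after injury. TFF1 accompanies MUC5AC at the surface, while TFF2 is best known from mucous neck cells and accompanies the gland mucin MUC6. Gastrokines are abundant secreted proteins with a BRICHOS domain, and GKN2 forms a disulfide-linked partner of TFF1.

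Values are intensities on a linear scale as deposited. A detection floor of 23.3 was set from 78 probe sets for odorant and vomeronasal receptors, which the stomach should not express, by taking their 95th percentile on each array and then the largest of these values. Lower values were set to the floor ahead of the log2 step, so a fold against such a value is a lower bound. Of all genes, 4137 exceeded the floor on at least 1 array, and all 8 of the set did. Scatter between pools or arrays could not be judged. Different probe sets of 1 gene on these arrays had log2 ratios with an SD of 0.48 over 785 combinations of gene and array pair. This SD, called the scatter below, shows how far probe sets disagree. A step named larger than it exceeds 1 SD, which does not show that lineages differ. Over genes that exceeded the floor on all 3, the median log2 difference was 0.21 for pit minus zymogenic, 0.64 for parietal minus zymogenic and -0.29 for pit minus parietal. These shifts between whole arrays are the zero line against which the values below can be read.

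All 8 genes were lowest in the zymogenic pool. There, 6 of the 8, all but Psca and Vsig1, were under the floor, whereas all 8 were above it on the other arrays. Of the 8, 0 were 4-fold higher in the zymogenic pool than in the pit pool (3.36% of all genes) or the parietal pool (2.83%). At least 4-fold above the zymogenic pool lay 7 of 8 in the pit pool, against 7.03% of all genes above the floor. The same 7, all but Psca, were at least 4-fold above it in the parietal pool, against 6.33% of all genes. These counts were 6 and 6 after quantile normalization and 5 and 6 with the floor added to every value as a pseudocount, while scaling to the BioB and BioC controls gave 7 and 8 and the probe set of lowest mean 7 and 6. The median log2 difference of the 8 was 5.52 for pit minus zymogenic and 4.15 for parietal minus zymogenic, and over all 4137 genes it was 0.0021 and 0.14. The medians of the 8 lay 5.31 and 3.51 above those of genes above the floor on all 3 arrays, a set that 6 of the 8 would not enter. As those 6 were under the floor in the zymogenic pool, the medians of the 8 are lower bounds. Between pit and parietal arrays the 8 split evenly as deposited, 4 higher on each. Their median log2 difference was 0.048, against 0 over all genes and -0.29 over genes above the floor on all 3 arrays. But the split was 5 pit to 3 parietal after quantile normalization and 2 to 6, with a median of -1.18, under BioB and BioC scaling. Only Psapl1 differed by 4-fold or more between them, with 0.967% of all genes that far higher in the pit pool, and 0 of 8 were that far higher in the parietal pool, against 2.44%.

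**Figure D1:**
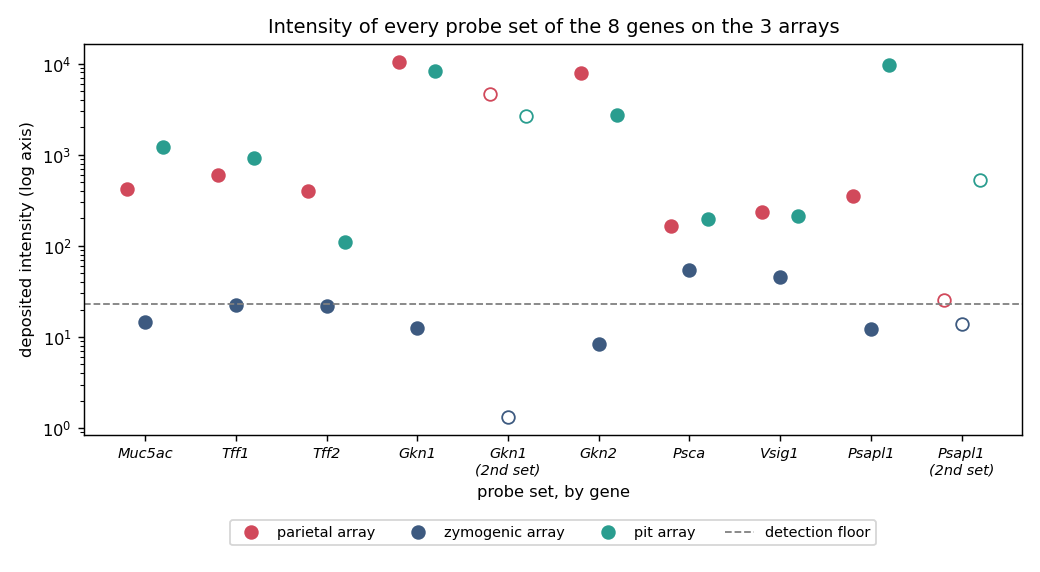
Deposited intensity (log axis) of each of the 10 probe sets in the parietal, zymogenic and pit arrays, 1 point per array; open points are the second probe sets of Gkn1 and Psapl1, and the dashed line is the detection floor of 23.3. The zymogenic point is the lowest of every gene, and which of the other arrays is highest differs from gene to gene.

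The surface mucin gene Muc5ac stood at 1225 in the pit pool, 425 in the parietal pool and 14.5 in the zymogenic pool. It was thus 2.88-fold higher in the pit than in the parietal pool, and above the zymogenic pool by at least 52.7-fold in the pit and at least 18.3-fold in the parietal pool. The pools thus ran from pit to parietal to zymogenic, and the zymogenic value lay under the floor.

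Tff1, whose protein is secreted with the surface mucin, read 926 in the pit pool, 601 in the parietal pool and 22.5 in the zymogenic pool. Its order of arrays as deposited was that of Muc5ac with a smaller step, 1.54-fold, from parietal to pit, which BioB and BioC scaling turned (log2 difference -0.60). Its zymogenic value lay just under the floor. Centred profiles over the 3 arrays lay 0.64 apart on the log2 scale for Muc5ac and Tff1, the second closest of all pairs among the 8.

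Tff2 went the other way. It stood at 402 in the parietal pool, 110 in the pit pool and 21.9 in the zymogenic pool. The parietal value was 3.65-fold above the pit value, and at least 17.3-fold above the zymogenic one. The pit value exceeded the zymogenic one by at least 4.74-fold. The difference between the trefoil factors in their pit minus parietal values was 2.49 on the log2 scale, which is 5.62-fold and larger than the scatter of such a difference (SD 0.68, from the SD between probe sets). As TFF2 is a product of mucous neck cells, other genes of those cells were read beside it. None of the 5 neck cell markers with a probe set (Gkn3, Glipr1, Aqp5, Wfdc2 and A4gnt) was above the floor in the parietal pool or in the zymogenic pool. In the pit pool 2 of 5 were, Wfdc2 at 89.0 and Gkn3 at 28.7. Their summed level was 50.2 in the parietal, 26.8 in the zymogenic and 138 in the pit pool. Of all 18194 genes, 2809 were above the floor in the parietal, 2284 in the zymogenic and 2616 in the pit pool. A list of 5 is too short to set against these shares. The part of neck cells in the Tff2 values was not tested. Muc6 was not analysed here.

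Gkn1 was read by a pair of probe sets. The brighter gave 10493 in the parietal pool, 8307 in the pit pool and 12.5 in the zymogenic pool. The dimmer gave 4587, 2672 and 1.33. Both placed the parietal pool above the pit pool, by 1.26-fold and 1.72-fold, and both put the zymogenic pool under the floor, at least 357-fold and at least 115-fold below the pit pool. The brighter values are near the highest on any probe set of these arrays (12079 in the parietal and 11141 in the pit pool). The name of the brighter set (ending x_at) marks probes that can also match other transcripts.

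Gkn2 stood at 7987 in the parietal pool, 2723 in the pit pool and 8.28 in the zymogenic pool. The parietal value was 2.93-fold above the pit value and at least 343-fold above the zymogenic one. It and Tff2 were the genes of the set most in favour of the parietal pool. Although their proteins pair, Gkn2 and Tff1 differed by 2.18 in their pit minus parietal log2 values, that is 4.52-fold. Gkn1 and Gkn2 differed by 1.22 in that measure with the brighter set of Gkn1 and by 0.77 with the dimmer, both more than the scatter.

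The gastrokine genes lie side by side on one chromosome, so the sequence before each start is shown for the pair. That of Psapl1, the gene most in favour of the pit pool, is shown with them. The 250 bases before the RefSeq start (GRCm38.p6) are printed 5′ to 3′ on the gene's strand, from chr6:87350916-87351165 (minus strand), chr6:87373115-87373364 (plus) and chr5:36203771-36204020 (plus). Capitals mark matches, on either strand, to TATAAA, the TATA box, or to forms of the GATA factor motif, which are AGATAA and also TGATAA.
Gkn1: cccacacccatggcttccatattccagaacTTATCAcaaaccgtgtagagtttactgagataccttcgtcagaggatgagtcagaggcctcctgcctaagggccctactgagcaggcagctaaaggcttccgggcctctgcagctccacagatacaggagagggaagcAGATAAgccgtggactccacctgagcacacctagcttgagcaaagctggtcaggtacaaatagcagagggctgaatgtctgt
Gkn2: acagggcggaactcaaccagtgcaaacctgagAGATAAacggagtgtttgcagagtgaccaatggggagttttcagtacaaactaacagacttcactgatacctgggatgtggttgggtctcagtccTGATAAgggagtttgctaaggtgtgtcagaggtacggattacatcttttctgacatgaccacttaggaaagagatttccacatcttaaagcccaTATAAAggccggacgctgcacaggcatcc
Psapl1: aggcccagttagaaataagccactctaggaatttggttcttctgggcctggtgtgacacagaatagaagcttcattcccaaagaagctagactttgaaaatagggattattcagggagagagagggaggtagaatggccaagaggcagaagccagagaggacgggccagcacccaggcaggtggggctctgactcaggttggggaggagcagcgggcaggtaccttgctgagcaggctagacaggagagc

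Both gastrokine stretches held AGATAA and TGATAA. In Gkn1, AGATAA began 82 bases before the start, and TGATAA lay on the opposite strand from 220 bases before it. In Gkn2, AGATAA began 218 bases and TGATAA 123 bases before the start, and TATAAA began 29 bases before it. Of 32851 promoter stretches of the same length, 9.99% held AGATAA, 7.94% TGATAA and 12.4% TATAAA. RefSeq promoters were at hand for 4 of the 8 genes. Those of Psapl1 and Vsig1 held none of the 7 motifs searched, which also included TGTTTAC (3.17% of stretches), TATTTAC (2.73%), CCACCC (28.1%) and CACGTG (6.02%), and no gastrokine stretch held any of these 4. A match to such short letters is a description of sequence, not a site of binding.

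Psca, a surface protein of the Ly6 family held by a lipid anchor, read 195 in the pit pool, 164 in the parietal pool and 54.8 in the zymogenic pool. It was 3.55-fold higher in the pit and 2.99-fold higher in the parietal pool than in the zymogenic pool, where it was above the floor. The step between pit and parietal, 1.19-fold, was smaller than the scatter between probe sets of 1 gene.

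Vsig1, an immunoglobulin-type adhesion protein of the glandular stomach epithelium, had 233 in the parietal pool, 210 in the pit pool and 45.0 in the zymogenic pool. It too was measured on all 3 arrays. The parietal and pit values were 5.18-fold and 4.67-fold above the zymogenic one, and differed from each other by 1.11-fold, within the same scatter. Psca and Vsig1 had the closest profiles of any pair among the 8, 0.56 apart.

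Psapl1, related to prosaposin, the precursor of the saposins that assist lipid breakdown in lysosomes, was the gene most in favour of the pit pool. Its brighter probe set gave 9552 in the pit pool, 353 in the parietal pool and 12.1 in the zymogenic pool. The other gave 531, 25.6 and 14.0. Pit exceeded parietal by 27.1-fold in the first and 20.7-fold in the second. The sets parted over the parietal pool, which was at least 15.2-fold above the zymogenic pool in the first and at least 1.10-fold in the second, whose parietal value was barely above the floor. Prosaposin itself, Psap, was read at 31.2 in the parietal, 11.4 in the zymogenic and 18.9 in the pit pool, and was picked out after its values were seen.

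Ordered by pit minus parietal, the genes ran Psapl1 (4.76), Muc5ac (1.53), Tff1 (0.62), Psca (0.25), Vsig1 (-0.15), Gkn1 (-0.34), Gkn2 (-1.55) and Tff2 (-1.87) on the log2 scale. Steps larger than the scatter of a difference lay between Psapl1 and Muc5ac (3.23), Muc5ac and Tff1 (0.90), and Gkn1 and Gkn2 (1.22). The other neighbours in the order were not separated beyond it. From end to end, Psapl1 and Tff2 were 6.63 apart, or 98.8-fold, while Muc5ac and Tff2 were 3.39 apart, or 10.5-fold. A factor common to a whole array cancels in these differences between genes. Scaling to 1 median or to the hybridisation controls BioB and BioC therefore could not change the order. Quantile normalization could, and there the order of all 8 was the same. What depended on scaling was where zero fell. The BioB and BioC controls averaged 299.8 in the parietal pool against 700.3 in the zymogenic and 700.6 in the pit pool. Scaling to them turned Tff1 and Psca towards the parietal pool (-0.60 and -0.98), while quantile normalization turned Vsig1 towards the pit pool (0.087). Muc5ac and Psapl1 stayed higher in the pit pool under all 3 scalings, at 0.30 to 2.28 and 3.54 to 5.14, and Gkn1, Gkn2 and Tff2 stayed higher in the parietal pool. Of these, the 0.30 of Muc5ac under BioB and BioC scaling was smaller than the scatter. So was Gkn1 as deposited, at -0.34, after scaling to 1 median, at -0.38, and after quantile normalization, at -0.19.

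**Figure D2:**
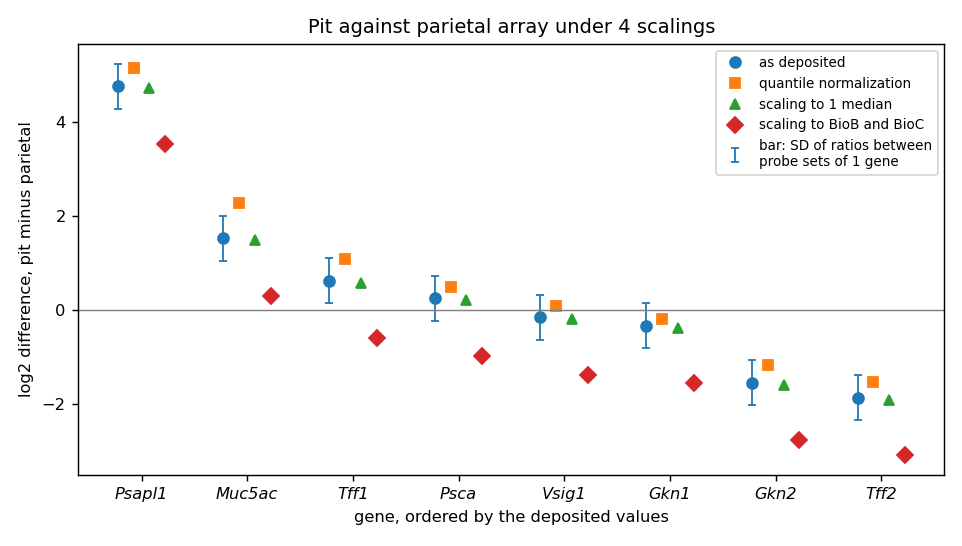
Log2 difference, pit minus parietal, of each of the 8 genes (x axis, ordered by the deposited values) under 4 scalings of the arrays; bars on the deposited values are the SD of 0.48 between probe sets of 1 gene. The order from Psapl1 to Tff2 is the same in each scaling, though only quantile normalization could change it, and the BioB and BioC scaling sets all genes lower.

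Among all genes above the floor, 163 (3.94%) were at least 4-fold above the zymogenic pool on both the pit and parietal arrays, and 7 of the 8 were among them. Within the 163, 27 were at least 2-fold higher in the pit than in the parietal pool, Muc5ac and Psapl1 among them. A further 13 were at least 2-fold higher in the parietal pool, Gkn2 and Tff2 among them. The remaining 123 were within 2-fold, with Tff1, Gkn1 and Vsig1.

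**Figure D3:**
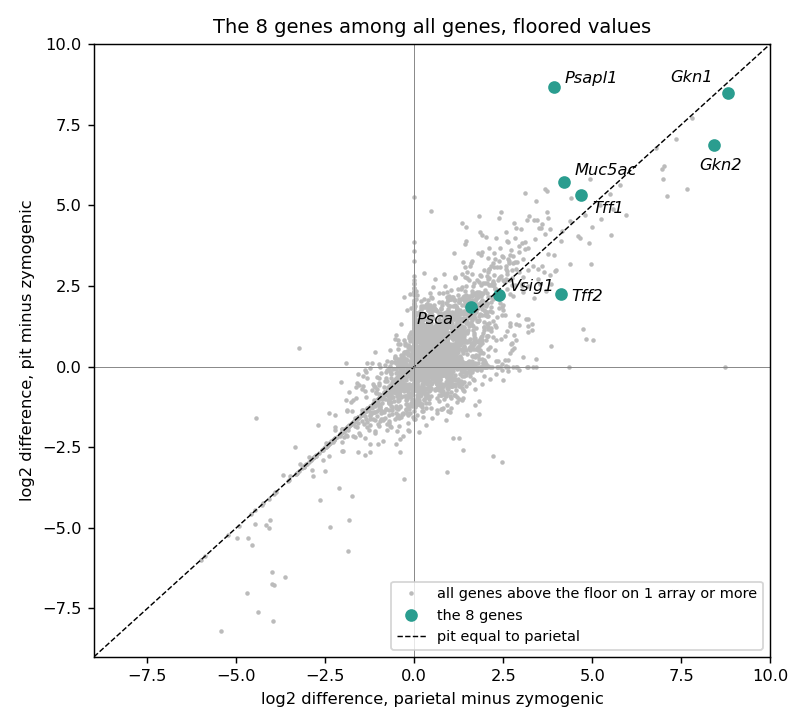
Log2 difference, parietal minus zymogenic (x axis) and pit minus zymogenic (y axis), of the 4137 genes above the floor on at least 1 array (grey) and of the 8 genes (green), with values under the floor raised to it. All 8 lie in the upper right; Psapl1 is far above the dashed line of equal pit and parietal values, and Tff2 and Gkn2 are below it.

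Cell markers outside the set were read on the same arrays. Of 8 other pit cell markers with a probe set, all 8 were above the floor in the parietal and in the pit pool, and 3 in the zymogenic pool. Their summed level was 3364 in the parietal, 187 in the zymogenic and 3467 in the pit pool. Ctse, the protease cathepsin E, stood at 2391, 64.8 and 2105 on these arrays in that order, while a further set of Ctse was under the floor throughout. The annexin Anxa10 was at 233, 18.6 and 201, while a further set of Anxa10 was above the floor in the pit pool alone, at 44.5. Krt20, a keratin of differentiated surface cells, was at 32.2, 8.83 and 657, and Dmbt1, a mucosal scavenger protein, at 41.1, 3.34 and 114. Sult1c2, a sulfotransferase, was highest in the parietal pool, at 337 against 37.1 and 103. These 5 examples were chosen after their values were seen. The median pit minus parietal log2 difference of the list was 0.024, so that these markers, like the 8 genes, split between the arrays.

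Parietal cell markers summed to 5787 in the parietal, 1359 in the zymogenic and 440 in the pit pool, with 7, 6 and 4 of 13 above the floor. Most of the parietal sum was Atp4b, a proton pump subunit, at 4402, 793 and 102. Of the 8 detected markers, 4 were higher in the parietal than in the zymogenic pool (median log2 difference 0.34). Over all genes above the floor 57.0% were higher there, and 8 markers are too few to set against this share. The markers that were lower were Atp4a (214 against 261), Kcnq1 (29.1 against 60.5), Slc4a2 (48.6 against 54.4) and Cckbr (22.3 against 24.6). Zymogenic cell markers summed to 555, 15253 and 120, with 4, 6 and 2 of 7 above the floor. In the parietal pool, then, the mucous genes were high together with pit markers and Atp4b. The part that RNA of pit cells has in the values in the parietal pool was not tested. Markers of endocrine cells, which summed to 40.4 in the parietal and 68.1 in the pit pool, reached 959 in the zymogenic pool. Fibroblast markers were highest in the parietal pool, where 4 of 6 were above the floor (2 in the zymogenic and 1 in the pit pool), with sums of 307, 149 and 88.3 in the parietal, zymogenic and pit pools. Col1a2 (125, 61.7 and 25.6) and Col3a1 (103, 39.4 and 19.8), both collagens, were at least 4-fold above the pit pool there. Leukocyte markers summed to 202, 209.5 and 84.9, mostly from Cd74 (166, 119 and 63.1), and smooth muscle markers to 123, 192 and 129, mostly from Acta2 (83.3, 146 and 83.8). Of 5 forestomach markers, Krt4 alone was detected, at 82.5 in the zymogenic pool. The part of these cells in the values was not tested. None of the 4 endothelial or the 2 erythroid markers with a probe set passed the floor on any array. These are too few to set against the 22.7% of all genes that passed it. Goblet cell markers of the intestine were under the floor on all arrays but for Clca1 in the pit pool (107).

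Of 53 relatives in 5 family lists, 20 (37.7%) were above the floor on at least 1 array, against 22.7% of all genes, and the lists differed. Of 9 other mucin genes with a probe set, 8 were under the floor on all 3 arrays, among them Muc2 and Muc5b, the neighbours of Muc5ac on the chromosome. Muc1, a membrane mucin named after its values were seen, was the exception, at 137 in the parietal, 43.9 in the zymogenic and 42.5 in the pit pool. Tff3, the intestinal trefoil factor, which lies beside Tff2, was at 6.36, 10.3 and 10.5. Gkn3, next to Gkn2, reached 28.7 in the pit pool and was under the floor on the others, and a further set was under it throughout. In all, 24 other genes lay within 2 places of the 8 in the order of genes with a probe set. Of these, 4 (16.7%) were above the floor on an array, against 22.7% of all genes, and 0 of the 4 were at least 4-fold above the zymogenic pool in the pit or parietal pool, too few to set against the shares over all genes.

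In the Ly6 and uPAR family of Psca, 6 of 15 other members were above the floor on an array, and 1 was at least 4-fold above the zymogenic pool in the pit pool and in the parietal pool. This was Lypd8, which keeps bacteria from the gut epithelium, at 4723 in the parietal, 9.07 in the zymogenic and 1049.6 in the pit pool. Ly6g6c was under the floor in the parietal pool, at 14.1 against 218 in the zymogenic and 325 in the pit pool, and a further probe set gave 11.5, 159 and 228. Both have names ending x_at, and the remaining set was under the floor throughout. In the family of Vsig1, 4 of 11 others were above the floor and 0 were 4-fold apart between any pair of arrays. The same was true of saposins and the lipid hydrolases they serve, with 7 of 10 above the floor and 0 that far apart. Over all genes above the floor, 0.967% to 7.03% were that far apart in a given direction between a given pair of arrays. The 6, 4 and 7 detected relatives are too few to set against these shares.

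Genes that build and pack mucins were examined next. Of 19 genes of mucin O-glycosylation, 7 were above the floor, with a median log2 difference of 1.28 for pit minus zymogenic. Gcnt3, which branches mucin glycans, stood at 459 in the pit, 264 in the parietal and 3.12 in the zymogenic pool. Galnt2, which adds the first sugar, stood at 121, 74.4 and 28.0 in that order. The further probe sets of both genes were under the floor throughout. Of 11 genes of mucin folding and packing, 5 were above the floor. Ern2, a stress sensor of mucous cells, was at 130 in the parietal, 6.78 in the zymogenic and 106 in the pit pool. Agr2, a disulfide isomerase needed for mucin folding, was at 149, 6.49 and 55.1, so that it was 2.70-fold higher in the parietal than in the pit pool. A further set of Agr2 was under the floor throughout. Clca1, a goblet cell protein that acts on mucus, was above the floor in the pit pool alone, and a further set was under it throughout. Xbp1, a regulator of secretory cells, was highest in the zymogenic pool at 539, against 263 in the parietal and 103 in the pit pool.

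Transcription factors of mucous and foregut cells had a median log2 difference of 1.23 for pit minus zymogenic, and 9 of 18 were above the floor. Foxq1, which is required for Muc5ac expression in the mouse stomach, stood at 542 in the pit, 238 in the parietal and 6.26 in the zymogenic pool. Its pit minus parietal difference was 1.18 on the log2 scale, beside 1.53 for Muc5ac, and a further probe set gave 0.95. The further set of Foxq1 was much dimmer, at 59.9, 31.0 and 10.1 in that order. It gave 1.36 for pit minus zymogenic and 0.41 for parietal minus zymogenic, against 4.54 and 3.36 for the brighter set. The name of the brighter set ends x_at. Klf4, a factor of differentiated epithelium, was at 159, 194 and 9.23 in the same order of arrays, while a further set turned the order of pit and parietal (68.6 and 53.7). Hnf4a, a factor of gut epithelium, was at 116, 92.9 and 25.3, and its further probe sets were under the floor throughout. Of all 4137 genes above the floor on an array, 2069 were higher in the pit than in the zymogenic pool. Of the 9 detected factors, 7 were, and 9 are too few to set against this share. The exceptions were Gata4, at 23.9 in the pit, 13.4 in the parietal and 45.0 in the zymogenic pool, and Foxa1, at 48.0, 78.9 and 63.5. By the probe sets used, Gata5 and Gata6 were under the floor on all arrays. Of the receptors reported for trefoil factors, 4 of 5 were under the floor on all arrays (Cxcr4, Ackr3, Lingo2 and Lingo3). As only 22.7% of all genes were above the floor on an array, 5 receptors are too few to read. Egfr, highest in the zymogenic pool at 76.0, was the other, although a further set of Egfr was highest in the pit pool at 34.8. These were named after their values were seen.

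**Figure D4:**
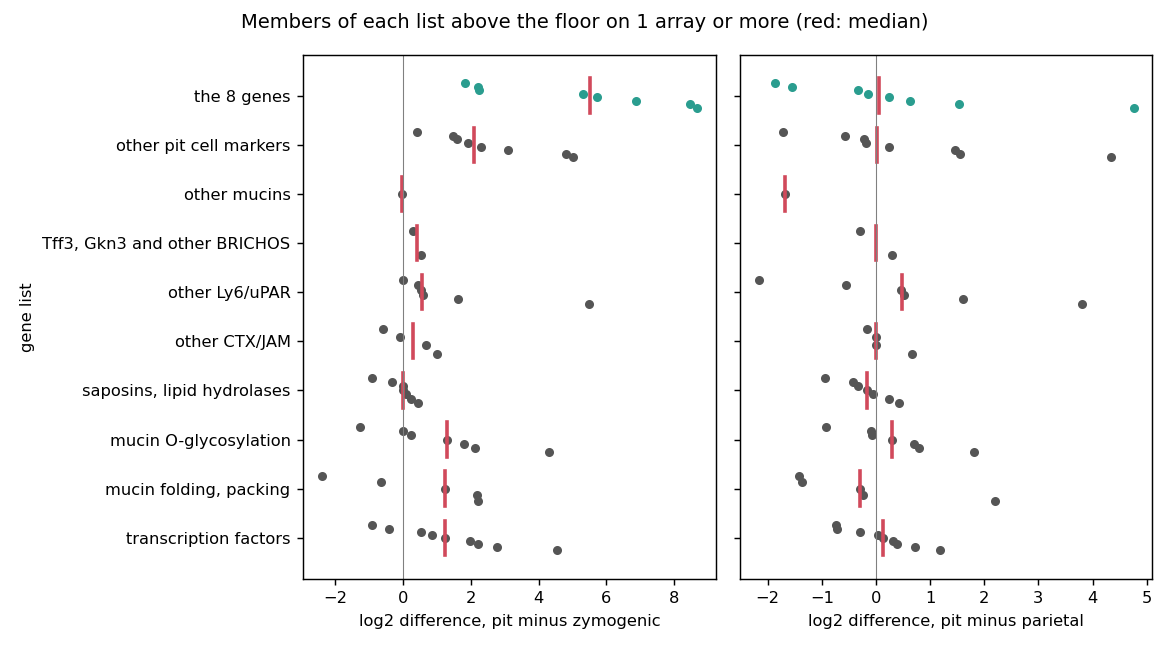
Log2 difference, pit minus zymogenic (left) and pit minus parietal (right), of the 8 genes (green) and of members of 9 other lists (grey) above the floor on at least 1 array, with the median of each list in red. The 8 genes have the highest median in the left panel, 5.52, and spread from -1.87 to 4.76 in the right panel.

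Genes outside the set with the most similar profiles were found by the distance between log2 profiles over the 3 arrays, each centred on its mean, among 478 genes at least 8-fold above the floor on an array. For Muc5ac these were Mal (distance 0.34), S100a6 (0.37) and Batf (0.51). Mal, a protein of apical transport, read 1019 in the pit, 306 in the parietal and 10.6 in the zymogenic pool. For Tff1 they were Tmsb10, an actin-binding thymosin (0.061), Batf (0.22) and Hsd17b11 (0.36). For Tff2 they were Tubb4b, a tubulin (0.39), Ubxn10 (0.40) and Cbr3, a carbonyl reductase (0.56). Psca was nearest to Cfl1, the actin-severing protein cofilin (0.071), Serpinb6e (0.087) and Txnip (0.14), and Vsig1 to the glutathione peroxidase Gpx1 (0.12), Hmgcs1 (0.14) and Scap (0.17). The extreme genes had no close match. Psapl1 was 2.43 from Anxa2, 2.50 from S100a6 and 2.56 from Mal. Gkn1 was 0.75 from Lyzl4, 1.19 from Olfr870 and 1.54 from Cabp7, and Gkn2 was 0.97 from Olfr870, 0.97 from Lypd8 and 0.99 from Slc5a4b. Olfr870 is 1 of the 5 odorant or vomeronasal receptor probe sets that exceeded the floor on an array. With 3 arrays, and values at the floor in most zymogenic readings, this likeness is a description of order and size alone.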

How the data were processed

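The authors deposited 1 intensity on a linear scale per probe set for each of 3 Affymetrix mouse arrays, per the labels made from amplified, biotin-labelled RNA pooled over mice. Whether total RNA (design text) or nuclear RNA (molecule label) was used is not settled. How probes were summarised, corrected for background and scaled is not given in the sources used here, and no scaling was added in the main setting. Precision is limited by the number of arrays. Of 45101 probe sets, 34958 name 1 gene, 34754 of them matched by gene identifier to RefSeq (GRCm38.p6), which also gave promoters and gene order. The 932 that name several genes were left out. For each gene the probe set of highest mean stood. The members and lists were chosen with earlier results of these data known. The naming rule took every member, up to 4 list genes at least 4-fold apart between arrays, the 3 genes of nearest profile and the 2 nearest chromosomal neighbours on each side. The alternatives were other scalings, floors, probe set choices and fold thresholds. Calculations used Python 3.11.15, numpy 2.4.6, pandas 2.3.3 and matplotlib 3.10.9 and were tested on simulated data.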

Additional observations from a re-analysis of the deposited data

How the results depend on the processing

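Of the 8 alternatives of scaling, floor and probe set, those of the floor, with the pseudocount, cannot reverse a direction. The choice of probe set could do so only for Gkn1 and Psapl1. For the other genes only the 3 scalings could. All 8 genes kept higher values in the pit and parietal arrays than in the zymogenic pool under all 8 alternatives, wherever they could be measured. The exception was the 99th-percentile floor (949.8), which left 4 of the 8 genes above it and Muc5ac and Psapl1 at 0 for parietal minus zymogenic. There the medians were 2.32 for pit minus zymogenic and 1.54 for parietal minus zymogenic, and 2 genes each were at least 4-fold higher in the pit and in the parietal pool. With the floor as a pseudocount these medians were 4.71 and 3.49. The parietal minus zymogenic median was 4.80 with the 90th-percentile floor and 5.20 with scaling to BioB and BioC, which put the pit minus parietal median at -1.18 and 2 genes (Gkn2 and Tff2) at least 4-fold higher in the parietal than in the pit pool. That scaling moved the pit minus parietal median of all genes from 0 to -0.68. With the probe set of lowest mean the pit minus zymogenic median was 4.91. After quantile normalization, 2 genes were at least 4-fold higher in the pit than in the parietal pool (Psapl1 and Muc5ac), and at a threshold of 2-fold 2 were higher each way. Of 180 single-gene values under these alternatives, 124 moved by less than the SD between probe sets and 56 by more. Many of the 124 could not move, so their number does not measure stability. The probe set choices leave every gene but Gkn1 and Psapl1 as it was. Nor can the 90th-percentile floor change a pit minus parietal value, as all 8 genes exceeded the main floor on both arrays. The depth of these arrays cannot show differences under the floor, so the zymogenic levels of 6 of the genes have no order.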
